A study of Homo sapiens with 16 samples.

Results

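The 7 genes described here encode surface antigens and stemness markers of tumor cells: TM4SF1, CD24, CD44, PROM1, MUC1, ALDH1A3 and CD274. They were chosen from measured values of these same samples, as genes that differ between 2 breast cancer cell lines or between 2 glucose levels, so their own differences are given as a description. The same limma fit was run on them as on all genes, but a place past its threshold is no evidence for a gene chosen in this way, and no p is given for them. The table holds 18332 genes, and 6 of the 7 have a row under their own symbol. CD24 has none, and the row of an annotated copy of it, CD24P4, is given in its place. How many of the reads of that row came from CD24 was not tested.

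The samples were 16 RNA-seq libraries of MDA-MB-231 and MDA-MB-468, established human breast cancer lines that both lack the estrogen receptor. The control cells of each line spent 48 hours in low glucose medium (5 mM), and the cells of the hyperglycemia model spent the same time in high glucose medium (25 mM), with 4 replicates per group. All 4 groups were conditioned in low glucose and then treated without serum. MDA-MB-231 was maintained in DMEM and MDA-MB-468 in RPMI, so that line and medium cannot be told apart. Each line stands for a single tumor, and the cells were treated in culture, without the host or stroma of a diabetic animal. The comparison of glucose levels asks which transcripts of a tumor cell differ between 25 and 5 mM glucose. The comparison of lines asks where each marker is found at all. The paper balanced osmolarity with mannitol in some of its control cultures and reports no effect of it on the phenotypes studied. Whether the controls of these libraries had it is not stated, so that glucose and osmolarity cannot be told apart here.

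Libraries held 14094597 to 24425916 reads. VIM and CDH1 set the lines far apart. The mesenchymal intermediate filament gene VIM had 89664 to 99379 normalized reads in MDA-MB-231 and 15.8 to 35.4 in MDA-MB-468. The epithelial cadherin gene CDH1 had 4.29 to 10.7 in MDA-MB-231 and 1941 to 2139 in MDA-MB-468. The epithelial keratin genes KRT8 and KRT18 were found in both lines. KRT8 had 9910 to 11382 in MDA-MB-231 and 39934 to 49338 in MDA-MB-468, and KRT18 had 6284 to 7362 and 19060 to 22363. ESR1, the estrogen receptor gene, was at 0 to 2.92 normalized reads in MDA-MB-231 and at 38.2 to 69.7 in MDA-MB-468, and PGR had no row. PTPRC, a leukocyte gene, did not exceed 16.5 normalized reads in any library. COL1A1, a fibroblast gene, had 236 to 371 normalized reads over the libraries of both lines, and PECAM1, an endothelial gene, had no row. In bulk samples like these, fewer cells that carry a transcript and less of it per cell cannot be told apart. A normalized read count here is a read count divided by a factor for the size of its library.

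The 7 genes are read together in breast cancer because each marks cells at the surface or by an enzyme activity. CD44 is the receptor for hyaluronan, CD24 is a small, heavily glycosylated protein held in the membrane by a lipid (GPI) anchor, and cells with much CD44 and little CD24 have long been used as a stem-like fraction of breast tumors. PROM1 (CD133) is a pentaspan protein of membrane protrusions, and ALDH1A3 is an aldehyde dehydrogenase that makes retinoic acid and contributes to the ALDEFLUOR activity by which such cells are sorted. TM4SF1 is a tetraspanin-like protein of the plasma membrane, MUC1 is a transmembrane mucin of the apical surface of epithelia, and CD274 (PD-L1) is the ligand through which a cell restrains T cells that carry PD-1.

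Sequences are shown for the row given in place of CD24 and for the promoters of 4 members: TM4SF1 and MUC1, whose glucose differences had opposite directions in the 2 lines, CD274, which had the largest glucose difference of the rows tested in MDA-MB-231, and CD24, whose promoter windows were not found in GRCh37. The CD24P4 row, ENSG00000185275, is annotated as a processed pseudogene on chromosome Y (GRCh37 position 21154353 to 21154595, minus strand), and spans 243 bases:
CD24P4: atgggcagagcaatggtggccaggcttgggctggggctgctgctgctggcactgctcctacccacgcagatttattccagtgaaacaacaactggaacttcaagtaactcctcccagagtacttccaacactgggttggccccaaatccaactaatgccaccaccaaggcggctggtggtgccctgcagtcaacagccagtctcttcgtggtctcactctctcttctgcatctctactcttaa
The other annotated copies were less alike. CD24P2 was identical to it at 82.52% of the positions of a global alignment, with gaps counted as differences, CD24P1 at 76.83% and CD24P5 at 72.33%. RefSeq places CD24 itself on chromosome 6 of GRCh38.p14, with 3 start sites. None of the 3 windows around those start sites, and none of their last 50 bases, had an exact match in GRCh37, where each window of the other 6 members matched exactly once. No transcript sequence of CD24 was used here, so that its identity to the CD24P4 row was not computed, and reads of CD24 and of its copy were not told apart. No position of CD24 in GRCh37 was used. The only other chromosome Y row of the table had 9 to 37 reads per library, against 8946 to 12434 reads of CD24P4 in MDA-MB-468.

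In the promoters, written 5′ to 3′ on the strand of the gene, capitals mark matches on either strand to any of 5 motifs. The E-box was searched as CACGTG. The motif of AP-1 was searched as TGANTCA. The motif of STAT factors was searched as TTCNNNGAA. The TATA box was searched as TATAAA, and matches to it were read on both strands like the others. The GC box was searched as GGGCGG, and its matches may overlap. Each run is the 250 bases before a RefSeq start site of GRCh38.p14. They are those of TM4SF1 (chr3:149377650-149377899, minus strand), MUC1 (chr1:155192916-155193165, minus), CD274 (chr9:5450292-5450541, plus) and CD24 (chr6:106975628-106975877, minus):
TM4SF1: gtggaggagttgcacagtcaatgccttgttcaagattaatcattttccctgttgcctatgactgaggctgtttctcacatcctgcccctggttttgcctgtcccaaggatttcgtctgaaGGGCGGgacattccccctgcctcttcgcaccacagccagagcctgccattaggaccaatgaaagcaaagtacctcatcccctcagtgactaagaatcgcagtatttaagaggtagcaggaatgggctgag
MUC1: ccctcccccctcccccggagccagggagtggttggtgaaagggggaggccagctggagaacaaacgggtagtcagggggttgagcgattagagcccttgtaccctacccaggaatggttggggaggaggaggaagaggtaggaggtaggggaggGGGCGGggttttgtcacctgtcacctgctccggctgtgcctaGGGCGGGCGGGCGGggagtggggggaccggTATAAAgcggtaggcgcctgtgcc
CD274: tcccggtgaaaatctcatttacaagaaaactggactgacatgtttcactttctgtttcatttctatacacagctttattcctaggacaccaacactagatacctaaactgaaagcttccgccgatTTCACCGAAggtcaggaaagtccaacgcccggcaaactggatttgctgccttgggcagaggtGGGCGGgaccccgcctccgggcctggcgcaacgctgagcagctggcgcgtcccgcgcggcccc
CD24: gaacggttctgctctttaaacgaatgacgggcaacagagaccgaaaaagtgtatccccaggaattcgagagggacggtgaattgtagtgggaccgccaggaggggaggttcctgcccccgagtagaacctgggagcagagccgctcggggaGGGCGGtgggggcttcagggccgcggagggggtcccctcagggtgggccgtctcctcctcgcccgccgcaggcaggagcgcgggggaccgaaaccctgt
The promoter of TM4SF1 held 1 GC box and 4 CG pairs in the 300 bases searched, which reach 50 bases past the start, and 25.35% of 27305 promoters had fewer CG pairs. That of MUC1 held a TATA box, whose first base is 24 bases before the start, and 4 GC boxes, 3 of which overlap. A TATA box by these letters occurred in 11.954% of promoters and a GC box in 44.585%. That of CD274 held a match to the STAT letters, 125 bases before the start, which 7.881% of promoters had, and 1 GC box. The ALDH1A3 promoter held 6 GC boxes and 46 CG pairs, more than 97.17% of promoters, CD44 had 2 GC boxes, CD24 had 1, and PROM1 had no match to any of the 5 motifs. None of the 7 held the E-box letters, found in 7.435% of promoters, or the AP-1 letters, found in 7.764%. These matches describe letters and not bound sites.

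**Figure D1:**
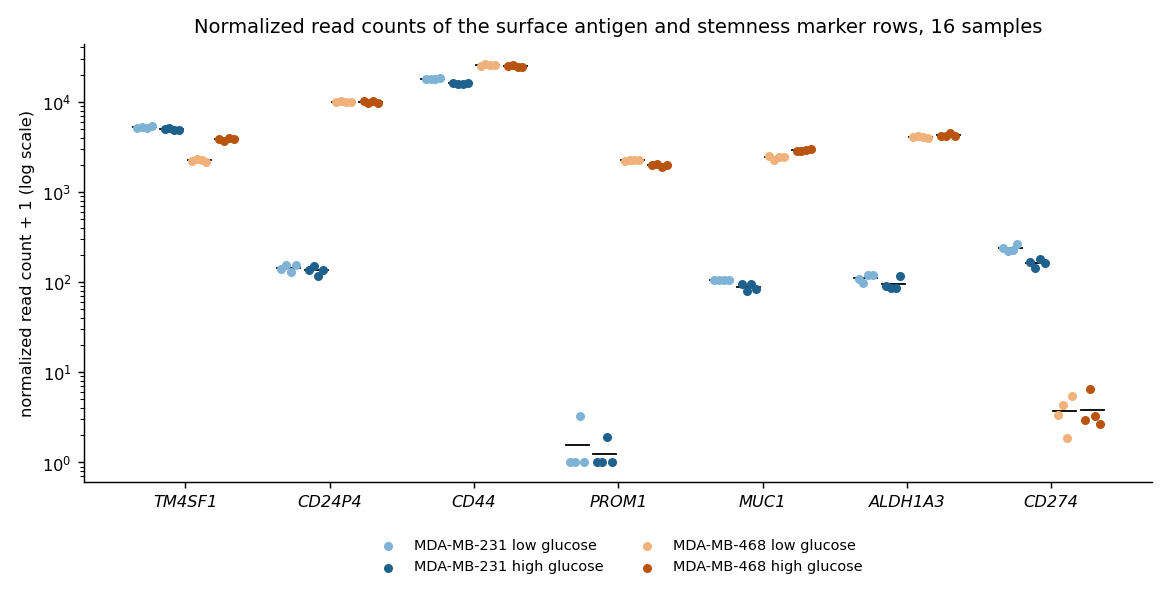
Normalized read counts plus 1 of the 7 marker rows (vertical log axis) in the 16 samples, with points for samples, colors for the 4 groups and a bar at each group's mean. CD24P4, PROM1, MUC1 and ALDH1A3 lay higher in MDA-MB-468, CD274 lay higher in MDA-MB-231, and CD44 and TM4SF1 were abundant in both lines.

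Between the lines, all 7 rows differed without overlap in both glucose levels. CD24P4, PROM1, MUC1, ALDH1A3 and CD44 were higher in MDA-MB-468, and TM4SF1 and CD274 were higher in MDA-MB-231. All 7 rows were past the limma threshold in both comparisons, in which 85.4% of all genes tested were called in low glucose and 85.2% in high glucose, and since the members were chosen on such differences nothing is read from that count. Compared per length, which allows levels of different genes to be set side by side, TM4SF1 and CD44 led in MDA-MB-231 in low glucose with 195 ± 5.73 and 191 ± 4.00 RPKM (SD, n = 4), which did not differ beyond their spread. CD274, MUC1 and ALDH1A3 followed with 3.74 ± 0.322, 3.34 ± 0.0261 and 1.84 ± 0.183 RPKM. In MDA-MB-468 in low glucose the order by RPKM was CD44 (299 ± 6.31), TM4SF1 (91.5 ± 2.32), MUC1 (84.8 ± 4.55), ALDH1A3 (74.6 ± 0.603) and PROM1 (35.4 ± 0.310). In high glucose the gap between TM4SF1 and MUC1 there widened to 153 ± 4.10 against 99.8 ± 2.08 RPKM. CD24P4 was left out of this order, because its 243 bases are not the length of the CD24 transcript.

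CD44 (ENSG00000026508, chromosome 11, 35160429 to 35253949 on GRCh37) was the most abundant of the rows by read count in every group. In MDA-MB-231 it had 18104, 17749.6, 17721 and 18406 normalized reads in the 4 low glucose samples and 16354, 15793, 15869 and 16026 in high glucose. Every high glucose sample lay below every low glucose sample, and the difference was -0.17 on the log2 scale (SE 0.03). In MDA-MB-468 it had 24904, 26299, 25428 and 25401 in low glucose and 25173, 25270.2, 24486 and 24077 in high glucose, and the groups overlapped (log2 difference -0.04, SE 0.03). The difference between the lines was 0.50 in low and 0.63 in high glucose on the log2 scale, the smallest of the 7 in low glucose. Gene-level counts do not separate the standard and variant splice forms of CD44.

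The CD24P4 row separated the lines and did not separate the glucose levels. It had 138, 153, 129 and 152 normalized reads in MDA-MB-231 in low glucose and 136, 150.4, 116 and 135 in high glucose. In MDA-MB-468 it had 9833, 10170.5, 10010.2 and 9904 in low glucose and 10103, 9781, 10239 and 9812 in high glucose. The glucose groups overlapped in both lines, with log2 differences of -0.09 (SE 0.10) and 0.00 (SE 0.03). Between the lines the row was higher in MDA-MB-468 by 6.12 on the log2 scale in low glucose and by 6.21 in high glucose. By these rows MDA-MB-231 had much CD44 and little CD24P4, and MDA-MB-468 had much of both.

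PROM1 (ENSG00000007062, chromosome 4, 15964699 to 16086001) was all but absent from MDA-MB-231, with 2 reads in 1 of the 4 low glucose libraries, 1 read in 1 of the 4 high glucose libraries and 0 in the rest, and was not tested there. In MDA-MB-468 it had 2214, 2265, 2235 and 2237 normalized reads in low glucose and 1969, 2060.2, 1908 and 1974 in high glucose. All 4 high glucose samples lay below all 4 low glucose samples, by -0.18 on the log2 scale (SE 0.03). The ratio of CPM between the lines, from summed reads, was 5292 in low glucose (95% exact interval 1465 to 43700) and 8612 in high glucose (1545 to 340200), wide because so few reads stood in the denominator.

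ALDH1A3 (ENSG00000184254, chromosome 15, 101417919 to 101456831) was likewise a gene of MDA-MB-468. It had 4049, 4122, 4089 and 4013 normalized reads in low glucose there and 4162, 4207, 4458 and 4207 in high glucose, groups that did not overlap but differed by no more than 0.07 on the log2 scale (SE 0.03). In MDA-MB-231 it had 106, 96.9, 118 and 120.3 in low glucose and 89.5, 84.1, 85.5 and 117 in high glucose. There the fourth high glucose sample lay inside the low glucose range, and the difference of -0.24 had an SE of 0.12. The lines differed by 5.19 in low and 5.50 in high glucose on the log2 scale.

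TM4SF1 (ENSG00000169908, chromosome 3, 149086809 to 149095479) showed the largest glucose difference of the tested rows, and in opposite directions in the 2 lines. In MDA-MB-468 it had 2215, 2325, 2242 and 2170.1 normalized reads in low glucose and 3826, 3654, 3960.1 and 3855 in high glucose. Each high glucose sample exceeded each low glucose sample, and the mean was 1.71-fold higher (log2 0.77, SE 0.03). In MDA-MB-231 it had 5135, 5272, 5168 and 5408 in low glucose and 4956, 5055, 4893 and 4812 in high glucose. Here each high glucose sample was below each low glucose sample, but the difference was only -0.09 on the log2 scale (SE 0.03). With the higher level of MDA-MB-468 in high glucose, the gap between the lines shrank from -1.23 to -0.37 on the log2 scale.

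MUC1 (ENSG00000185499, chromosome 1, 155158300 to 155162707) had the same pair of directions. In MDA-MB-468 it had 2521, 2238, 2428 and 2471 normalized reads in low glucose and 2843, 2845, 2915 and 3004 in high glucose, and the groups did not overlap (log2 difference 0.27, SE 0.04). In MDA-MB-231 it had 104, 105, 105 and 105 in low glucose and 95.4, 77.8, 93.8 and 83.7 in high glucose. These groups were also apart, with a difference of -0.26 (SE 0.11) at a level of 74 to 146 reads per library. MDA-MB-468 exceeded MDA-MB-231 by 4.51 in low and 5.04 in high glucose on the log2 scale.

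CD274 (ENSG00000120217, chromosome 9, 5450503 to 5470566) was, like TM4SF1, higher in MDA-MB-231. In MDA-MB-231 it had 237, 219, 225 and 263 normalized reads in low glucose and 167, 144, 180.2 and 164 in high glucose. All 4 high glucose samples lay below the low glucose samples, and the difference of -0.52 (SE 0.09) was the largest of the rows tested in this line. MDA-MB-468 had 1 to 5 reads per library, 12 over the low glucose group and 11 over the high glucose group, and was not tested. The CPM ratio of MDA-MB-231 to MDA-MB-468, from summed reads, was 78.8 in low glucose (95% exact interval 44.9 to 153) and 56.4 in high glucose (31.3 to 114).

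**Figure D2:**
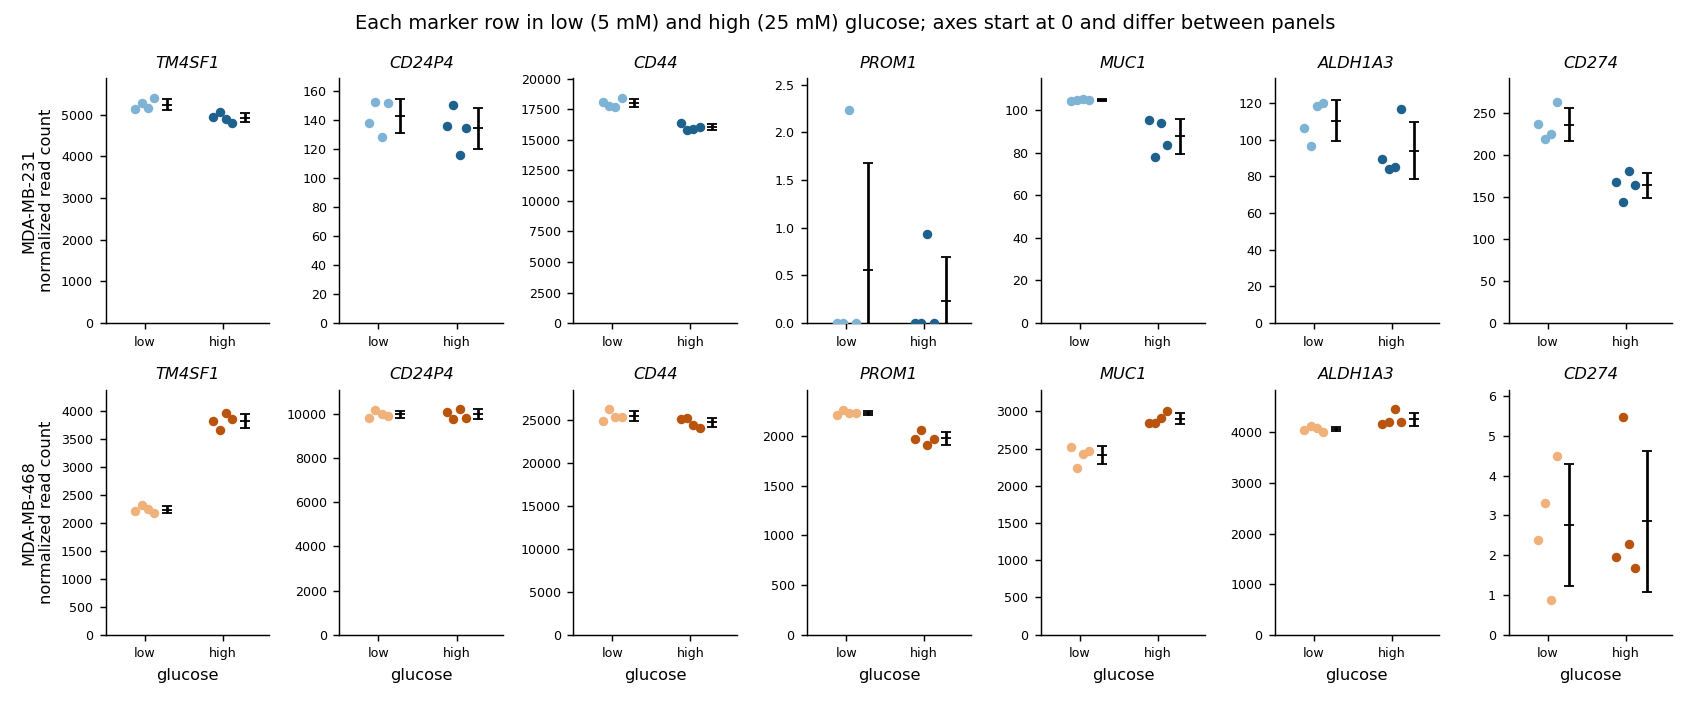
Normalized read counts of each row in low and high glucose (points are samples, bars give mean ± SD, n = 4) with MDA-MB-231 above and MDA-MB-468 below, each axis starting at 0 and bars not drawn below it. TM4SF1 in MDA-MB-468 went from 2170.1 to 2325 in low glucose to 3654 to 3960.1 in high glucose, and CD274 in MDA-MB-231 from 219 to 263 to 144 to 180.2.

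In MDA-MB-231, 3 of the 6 rows tested were past the limma threshold, all lower in high glucose (TM4SF1, CD44 and CD274), where 15.1% of all genes tested were called, and 4 of the 7 rows had groups that did not overlap, against 18.7% of the genes tested. When any 1 of the 8 libraries was left out, CD44 and CD274 were past the threshold and TM4SF1 was not. With all 8 libraries, TM4SF1 also was not with no filter on low values, TMM rescaling, limma without trend, a replicate block or edgeR. Under both other pseudocounts, the stricter filter and DESeq2, TM4SF1 was past the threshold. In MDA-MB-468, 3 of the 6 rows tested were past it, TM4SF1 and MUC1 higher and PROM1 lower, where 47.6% of all genes were called, and 4 of the 7 rows had groups that did not overlap, against 42.5%. In the difference of the glucose response between the lines, 3 of the 7 rows were past the threshold (TM4SF1, 0.86 on the log2 scale, MUC1, 0.52, and CD44, 0.13), where 30.9% of genes were called. As the rows were chosen from these comparisons, nothing is read from these counts.

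**Figure D3:**
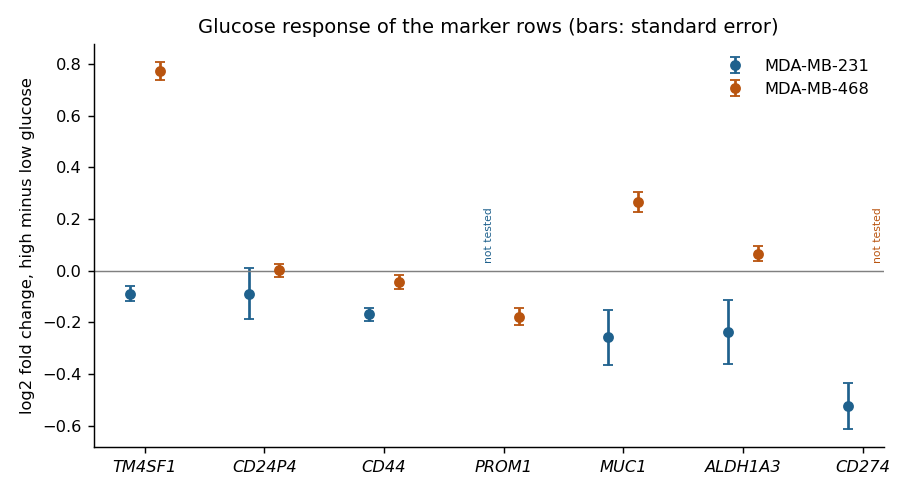
Log2 fold change of high against low glucose for each row (vertical axis) in both lines, with bars for 1 SE. TM4SF1 stood at -0.09 and 0.77 and MUC1 at -0.26 and 0.27 in the 2 lines, and CD24P4 lay at -0.09 and 0.00.

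The genes most like 5 of the members across the 16 samples, after each line was centred on its own mean, are given as a description (Pearson's r on log2 values, over 12105 genes, n = 16). These points share their library, its depth and the glucose groups. For TM4SF1 they were SSRP1 (r = 0.992), CCT7 (0.992) and MRFAP1 (0.991), which encode a histone chaperone subunit, a subunit of the CCT chaperonin and a MORF4-family partner. SSRP1 was higher in high glucose by 0.88 on the log2 scale in MDA-MB-468 and differed by -0.12 in MDA-MB-231. For CD44 they were the proliferation marker MKI67 (0.958), the microtubule gene CKAP5 (0.957) and SUPT16H (0.955), which encodes the partner subunit of SSRP1. For MUC1 they were NOXO1 (0.934), SF3A1 (0.918) and SELENON (0.913). ALDH1A3 was most like PDGFRA (0.851), KCTD15 (0.843) and RPL22L1 (0.833), and CD24P4 was most like NUP35 (0.868), CYP2J2 (0.842) and CA2 (0.814). NOXO1, PDGFRA and KCTD15 had too few reads to be tested in MDA-MB-231, so that their values in that line rest on few reads. Among the members themselves, TM4SF1 and MUC1 were the most alike pair (r = 0.680). None are given for PROM1 and CD274, whose values in 1 of the lines rest on 0 to 5 reads per library.

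The relatives and partners of the members were read from 10 lists with 166 other genes, of which 144 had a row. The p-values of their tests are given. The lists were chosen with earlier results of these data known, and the p-values do not allow for that choice. Shares of calls beside those of all genes are therefore a description, here and in the lists below. In MDA-MB-231, 40 of the 116 tested passed the threshold, 15 higher and 25 lower in high glucose (34.5%, against 15.1% of all genes), with a median log2 fold change of -0.04 against 0.00 over all genes. In MDA-MB-468, 80 of 124 passed it, 48 higher and 32 lower (64.5%, against 47.6%), with a median of 0.07 against 0.00. 24 genes were called in both lines. They were 60.0% of the calls in MDA-MB-231, where 64.5% of the related genes tested in MDA-MB-468 were called. Of the calls in MDA-MB-468 they were 30.0%, where 34.5% were called in MDA-MB-231. The overlap was near these shares, and no shared response is read from it. Of the 24 genes, 6 were higher in both lines, 7 lower in both, and 11 moved in opposite directions.

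**Figure D4:**
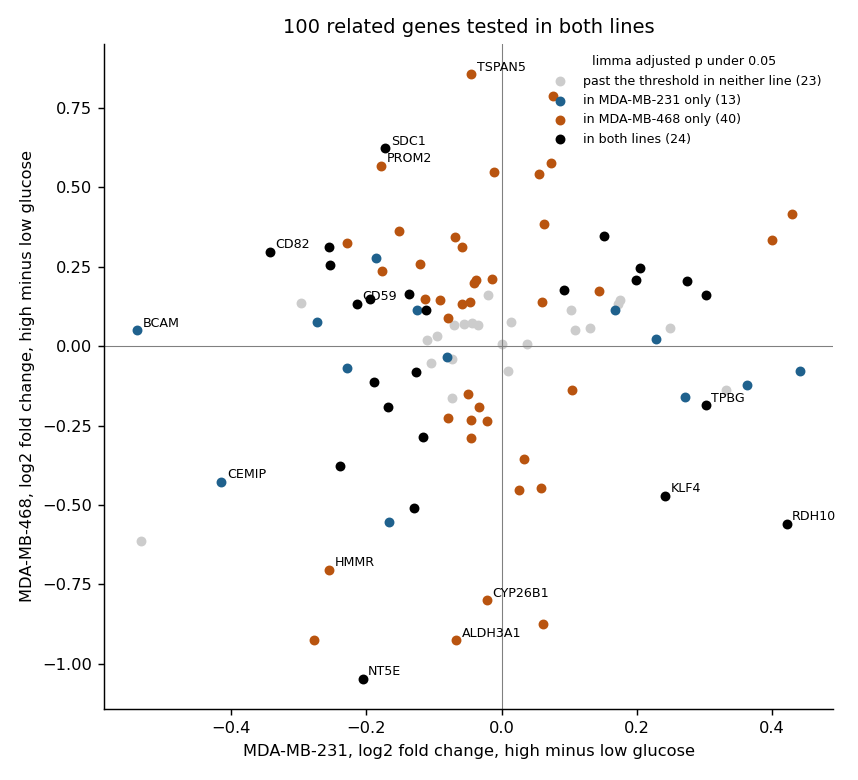
Log2 fold change of high against low glucose in MDA-MB-231 (horizontal) and MDA-MB-468 (vertical) for the 100 related genes tested in both lines, colored by the line in which limma's adjusted p was under 0.05. 24 genes passed in both lines, 13 in MDA-MB-231 alone, 40 in MDA-MB-468 alone and 23 in neither.

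In the list of TM4SF and tetraspanin genes, 12 of 16 tested passed the threshold in MDA-MB-468, 10 higher and 2 lower in high glucose. The median log2 fold change was 0.15. Each gene called there was a tetraspanin, a family whose products organize membrane microdomains, and none carried a TM4SF symbol like TM4SF1. TM4SF19 had 6 reads over the low glucose group of this line and 3 over the high glucose group. TSPAN5 rose from 88.6 ± 15.56 to 159.5 ± 5.95 normalized reads (SD, n = 4; log2 0.86, limma adjusted p = 1.36e-05), and TSPAN15, like TSPAN5 a partner of the protease ADAM10, rose by 0.58 (adjusted p = 3.55e-05). In MDA-MB-231, 5 of 18 passed the threshold, 3 higher and 2 lower. TM4SF19 rose there from 173 ± 5.68 to 224 ± 9.47 (log2 0.37, adjusted p = 0.00211), and CD82, a suppressor of metastasis, fell by 0.34 on the log2 scale (adjusted p = 3.78e-05). In MDA-MB-468 CD82 rose by 0.30 (adjusted p = 6.55e-07), and its glucose response differed between the lines by 0.64 (limma adjusted p = 2.26e-07). All 8 genes of the list with a called difference of the glucose response responded more positively in MDA-MB-468. The other called genes of this list, here and in the lists below, were named after their values were seen. In MDA-MB-231 they were TSPAN9, lower by -0.25 (adjusted p = 0.000395), TSPAN1, higher by 0.30 (0.0114), and CD63, a protein of exosomes and lysosomes, higher by 0.09 (adjusted p = 0.0482), which passed with all 8 libraries and without low glucose replicate 2, and without any other 1 library did not (0.0556 to 0.14). In MDA-MB-468 the 2 that fell were CD37 (-1.09) and TSPAN4 (-0.29), and CD9, CD151, CD63 and CD81 rose by 0.14 to 0.38 on the log2 scale. TM4SF18, the neighbor of TM4SF1, had no row.

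Of the partners of CD44 in the hyaluronan pathway, 7 of 13 tested passed in MDA-MB-231, 5 of them lower. HAS2, a hyaluronan synthase, fell from 329 ± 40.4 to 214 ± 22.7 normalized reads (log2 -0.62, limma adjusted p = 0.00016), and CEMIP, which takes part in hyaluronan breakdown, fell from 632 ± 15.8 to 474 ± 20.9 (log2 -0.41, adjusted p = 1.97e-05). ADAM10, a protease that cleaves CD44, fell by 0.19 on the log2 scale (adjusted p = 0.000464). The splicing regulator of CD44 ESRP2 rose by 0.44 at a low level, 59.3 ± 7.22 to 80.6 ± 4.38 (adjusted p = 0.0274), a call that was lost without low glucose replicate 1 or 3 (adjusted p = 0.0627 and 0.0787) or high glucose replicate 1, 2 or 3 (0.0772, 0.0509 and 0.067). Its relative ESRP1 was at 12.5 ± 2.25 and 15.56 ± 5.63 in this line and was not called. The ezrin gene EZR and the moesin gene MSN, whose products tie CD44 to actin, were lower by -0.11 (adjusted p = 0.013) and -0.08 (0.0482), and the call of MSN was lost without low glucose replicate 1 or 3 (0.14 and 0.0895) or high glucose replicate 2, 3 or 4 (0.107, 0.143 and 0.133). HYAL3, a hyaluronidase gene, was higher by 0.36 (0.0283), but not past the threshold without low glucose replicate 1 or 2 (0.0607 and 0.0893) or high glucose replicate 1 or 4 (0.0623 and 0.0895). In MDA-MB-468, 6 of 12 passed, 4 lower and 2 higher (50%, against 47.6% of all genes). HMMR, the hyaluronan-mediated motility receptor and a gene of the mitotic spindle, fell from 1768 ± 36.5 to 1086 ± 38.8 (log2 -0.70, adjusted p = 4.22e-10). ADAM10 fell by 0.11 there (adjusted p = 0.0173), a call lost without low glucose replicate 2 (0.0562) or high glucose replicate 4 (0.0505). The other 4 calls were EZR and RDX, higher by 0.11 and 0.09, and HAS3 and HYAL1, lower by -0.93 and -1.40 at means of 4.23 to 21.5 normalized reads. Of these, the call of RDX was lost without low glucose replicate 1 or 4 or high glucose replicate 1, 2 or 3 (adjusted p = 0.0505 to 0.0915), that of HAS3 without low glucose replicate 3 or 4 or high glucose replicate 3 (0.0624 to 0.0761), and that of HYAL1 without low glucose replicate 1 or 4 or high glucose replicate 1 (0.0509 to 0.0679). HAS2 had at most 1 read in any MDA-MB-468 library, and ESRP1, at 3688 ± 82.1 and 3836 ± 80.3, was not called.

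Among GPI-anchored antigens like CD24, 11 of 13 tested passed in MDA-MB-468, 7 higher and 4 lower. NT5E (CD73), the ectoenzyme that makes adenosine, fell from 2389 ± 90.9 to 1155 ± 15.4 normalized reads (log2 -1.05, limma adjusted p = 3.88e-12), and LY6D, a keratinocyte antigen, rose from 643 ± 53.0 to 1273 ± 106 (log2 0.98, adjusted p = 3.04e-09). In MDA-MB-231 2 of 9 passed, both lower. NT5E fell from 9970 ± 265 to 8645 ± 102 (log2 -0.21, adjusted p = 5.36e-05), and CD59, an inhibitor of complement, fell by 0.21 on the log2 scale (adjusted p = 6.05e-05). CD59 rose by 0.13 in MDA-MB-468 (adjusted p = 0.000621). There PSCA, LY6E and CEACAM6 rose by 0.52, 0.55 and 0.71, and MSLN (mesothelin) and PLAUR, the urokinase receptor, fell by 0.87 and 0.23 on the log2 scale. LY6D was near 0 in MDA-MB-231 and not tested there.

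In the short list of PROM1, both genes tested in MDA-MB-468 passed. PROM2, the other prominin, rose from 2555 ± 132 to 3783 ± 93.5 normalized reads (log2 0.57, limma adjusted p = 4.32e-09), where PROM1 itself was lower by -0.18. ABCB1, a drug efflux pump, which was named after its values were seen, fell from 41.8 ± 3.42 to 15.9 ± 3.10 (log2 -1.35, adjusted p = 5.39e-05). In MDA-MB-231 PROM2 was at 35.0 ± 8.75 and 30.5 ± 5.49 normalized reads and neither gene tested was called. The response of PROM2 differed between the lines by 0.75 (adjusted p = 0.00787).

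Of the mucin genes and the enzymes and lectin that act on them, 5 of 8 tested passed in MDA-MB-468, 2 higher and 3 lower. MUC15, a transmembrane mucin, rose from 429 ± 21.3 to 606 ± 5.35 normalized reads (log2 0.50, limma adjusted p = 5.54e-07). GALNT3, which starts O-glycans, fell by 0.23 on the log2 scale (adjusted p = 7.29e-05). C1GALT1C1, the chaperone of the enzyme that extends O-glycans, fell from 1017 ± 59.2 to 742 ± 25.8 (log2 -0.45, adjusted p = 9.7e-07). MUC16 (CA125) was lower by -0.38 (adjusted p = 0.0251), but not past the threshold without low glucose replicate 3 or 4 (0.0707 and 0.084) or high glucose replicate 3 or 4 (0.0507 and 0.0898). LGALS3, a galectin that binds MUC1, rose by 0.21 in MDA-MB-468 (adjusted p = 0.000238) and by 0.20 in MDA-MB-231 (adjusted p = 0.00333), where it was the 1 gene of 5 tested to pass.

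Of the aldehyde dehydrogenases, 10 of 16 tested passed in MDA-MB-468, 6 higher and 4 lower. ALDH3B2 rose from 2816 ± 92.7 to 4491 ± 91.9 normalized reads (log2 0.67, limma adjusted p = 1.09e-10), whereas ALDH3A1 fell from 188 ± 9.11 to 99.4 ± 17.6 (log2 -0.93, adjusted p = 6.16e-06). ALDH1A1, the other isozyme often named as a stem cell marker, was at 34.3 ± 7.35 and 32.7 ± 8.72 in MDA-MB-468, not called, and had 1 read or fewer in each MDA-MB-231 library. In MDA-MB-231 3 of 13 passed, of which ALDH7A1 fell by 0.27 on the log2 scale (adjusted p = 6.93e-05) and ALDH1B1 rose by 0.20 (adjusted p = 0.00378). ALDH1B1 rose in MDA-MB-468 too, by 0.25 (adjusted p = 0.00101). ALDH9A1 and ALDH5A1 rose in MDA-MB-468 by 0.54 and 0.36, and ALDH6A1 fell by 0.36 on the log2 scale. The third gene called in MDA-MB-231 was ALDH2, higher by 0.17 (adjusted p = 0.00366), named after its values were seen.

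The retinoic acid pathway, in which ALDH1A3 makes the ligand, held genes that moved apart. RDH10, which makes the retinal that ALDH1A3 oxidizes, rose in MDA-MB-231 from 435 ± 13.6 to 583 ± 23.0 normalized reads (log2 0.42, limma adjusted p = 2.08e-05) and fell in MDA-MB-468 from 2813 ± 83.8 to 1910.5 ± 91.9 (log2 -0.56, adjusted p = 6.24e-09). The glucose response of RDH10 differed between the lines by -0.98, MDA-MB-468 minus MDA-MB-231 (limma adjusted p = 2.48e-09). CYP26B1, which degrades retinoic acid, fell in MDA-MB-468 from 248 ± 14.0 to 142 ± 9.10 (log2 -0.80, adjusted p = 4.7e-07) and was not called in MDA-MB-231. RARG, a receptor for the ligand, rose by 0.23 in MDA-MB-231 (adjusted p = 0.00753). RXRB, a partner of the retinoic acid receptors, rose by 0.15 in MDA-MB-231 (adjusted p = 0.00853) and by 0.35 in MDA-MB-468 (7.95e-05). RXRA and the carrier gene CRABP2 rose in MDA-MB-468 by 0.34 and 0.32, and DHRS3, which reduces retinal, and the retinol transporter gene STRA6 fell by 0.37 and 0.28 on the log2 scale. In all, 3 of 9 tested passed in MDA-MB-231, each higher, and 8 of 12 in MDA-MB-468, 4 in each direction.

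**Figure D5:**
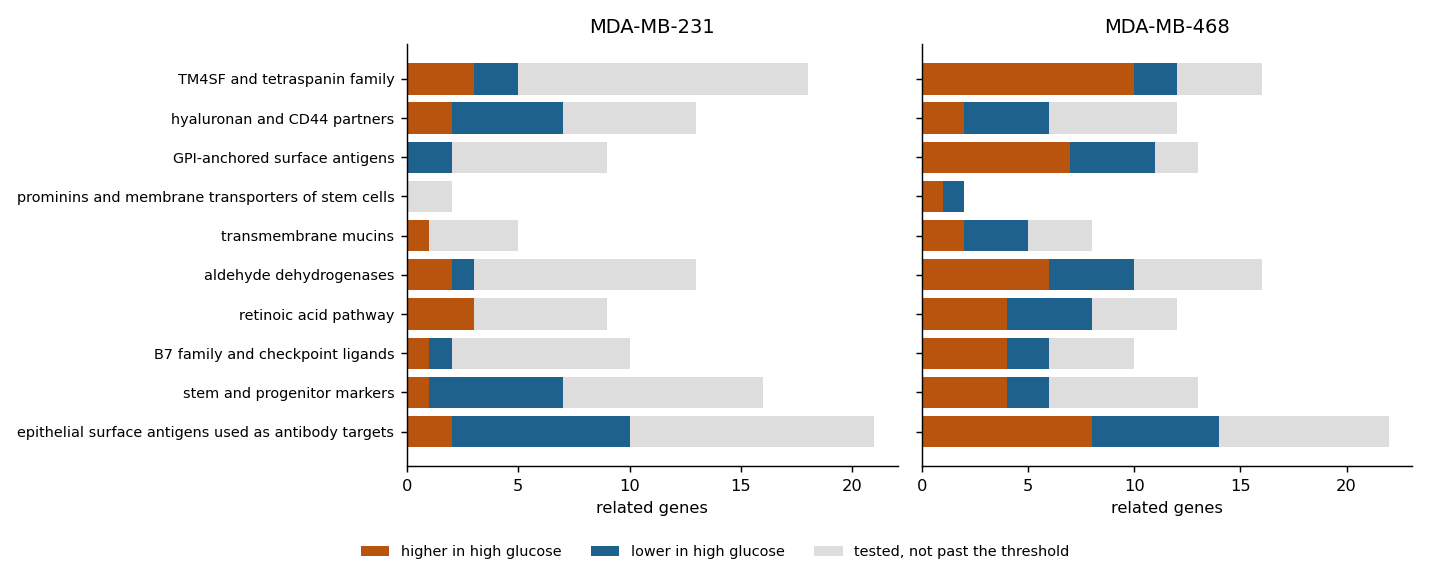
Number of related genes tested in each list (horizontal axis) in both lines, split into those higher in high glucose, those lower, and those not past the limma threshold of 0.05. In MDA-MB-231, 25 of the 40 calls were lower, and in MDA-MB-468, 48 of 80 were higher.

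Of the B7 family and other checkpoint ligands, 6 of 10 tested passed in MDA-MB-468, 4 higher and 2 lower. VTCN1 (B7-H4), an inhibitor of T cells, rose from 5158 ± 178 to 6502 ± 157 normalized reads (log2 0.33, limma adjusted p = 2.03e-07), and ICOSLG, a costimulatory ligand, from 683 ± 21.8 to 911 ± 12.3 (log2 0.42, adjusted p = 4.75e-07). PVR, the ligand of TIGIT, fell by 0.29 on the log2 scale (adjusted p = 3.15e-05), and CD47, which restrains macrophages, by 0.24 (0.000307). CMTM4, a relative of CMTM6, rose by 0.24 (0.00054). CD276 (B7-H3) was higher by 0.14 (adjusted p = 0.0313), with groups that overlapped, and the call was lost without low glucose replicate 2 or 4 (adjusted p = 0.0965 and 0.106) or high glucose replicate 1 or 3 (0.0697 and 0.0715). MDA-MB-468 had VTCN1 where it had almost no CD274, and MDA-MB-231 had CD274 and at most 1.12 normalized reads of VTCN1 in a library.

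In MDA-MB-231 the second PD-1 ligand, PDCD1LG2, was at 38.4 ± 4.32 normalized reads in low and 29.6 ± 8.19 in high glucose, a difference of -0.40 that was not called (limma adjusted p = 0.248). CMTM6, which keeps PD-L1 at the surface, was at 2954 ± 125 and 2812 ± 104 and was not called (adjusted p = 0.236). 2 of 10 genes of the list passed in this line, both by small margins. PVR fell by 0.12 on the log2 scale (adjusted p = 0.0385), but not without low glucose replicate 1, 2 or 3 (adjusted p = 0.107, 0.0607 and 0.102) or high glucose replicate 1, 2 or 4 (0.0833, 0.134 and 0.0802). TNFRSF14, named after its values were seen, was higher by 0.27 (adjusted p = 0.0319), but not past the threshold without low glucose replicate 1, 2 or 4 (0.0607, 0.0903 and 0.069) or high glucose replicate 1 or 4 (0.0983 and 0.103).

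Of the stem and progenitor markers, 7 of 16 tested passed in MDA-MB-231, 6 lower and 1 higher. SNAI2, a transcription factor of the mesenchymal program, fell from 381 ± 28.2 to 293 ± 25.2 normalized reads (log2 -0.38, limma adjusted p = 0.00179), and KLF4, a pluripotency factor, was the 1 that rose, from 1764 ± 72.5 to 2085 ± 9.44 (log2 0.24, adjusted p = 0.000157). The integrin genes ITGA6 and ITGB1 fell by 0.19 and 0.17, MYC by 0.23 and SOX9 by 0.14 on the log2 scale. In MDA-MB-468 6 of 13 passed, 4 higher and 2 lower (46.2%, against 47.6% of all genes). ITGA6 and SOX9 rose there by 0.15 and 0.16, and ITGB1 fell by 0.19. KLF4 fell there by 0.47 on the log2 scale (adjusted p = 0.00185), SNAI2 was at 0 in all 8 libraries, which allows up to 3 reads each, and the adhesion molecules ALCAM and EPCAM rose by 0.20 (adjusted p = 3.25e-05) and 0.17 (adjusted p = 0.000114). EPCAM was at 215 ± 15.1 and 238 ± 6.65 in MDA-MB-231, not called, and at 5428 ± 146 and 6121 ± 123 in MDA-MB-468.

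Of the surface antigens that serve as antibody targets, 10 of 21 tested passed in MDA-MB-231, 8 of them lower, and 14 of 22 in MDA-MB-468, 8 higher and 6 lower. SDC1 (syndecan-1), a heparan sulfate proteoglycan, rose in MDA-MB-468 by 0.62 (limma adjusted p = 1.35e-09) and fell in MDA-MB-231 by 0.17 on the log2 scale (adjusted p = 0.00371). TPBG, the 5T4 antigen, did the reverse, rising by 0.30 in MDA-MB-231 (adjusted p = 1.65e-05) and falling by 0.19 on the log2 scale in MDA-MB-468 (adjusted p = 0.000222). EPHA2, a receptor kinase, fell in MDA-MB-468 by 0.51 on the log2 scale (adjusted p = 1.24e-06), and SLC39A6 (LIV-1), a zinc transporter, by 0.45 (4.51e-07). BCAM, a laminin receptor, fell in MDA-MB-231 from 375 ± 28.2 to 257 ± 14.0 (log2 -0.54, adjusted p = 3.61e-05).

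Between the lines, 134 of the 140 related genes tested differed in low glucose, 64 higher and 70 lower in MDA-MB-468 (limma, 95.7% against 85.4% of all genes), and 134 in high glucose, 66 higher and 68 lower. The difference of the glucose response was called for 54 of 140 (38.6%, against 30.9% of all genes), 33 more positive and 21 more negative in MDA-MB-468.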

How the data were processed

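RNA-seq libraries of 2 established cell lines were analyzed, 4 per group and 16 in all, and groups and replicate numbers came from the sample titles. The members and the gene lists were chosen with earlier results of these data known.

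The authors trimmed the reads with Trimmomatic and aligned them with TopHat to hg19 with an Ensembl annotation, whereas the submitters' processing notes name hg38. Which tool counted the reads, and whether strand was used, is not given in the sources used here. Each deposited value is a normalized signal, a gene's read count after the authors scaled its library by 1 size factor. They are not the CPM values that the paper's methods name, and the tests below were chosen to fit them. Whole reads could be recovered for 100% of the values within 0.1 read, and 14094597 to 24425916 reads fell to a library, so that 3 reads, the floor used here, corresponded to 0.123 to 0.213 CPM. Intervals and floors cover counting error only. All 16 value columns were assigned to a sample.

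Symbols were found for 16633 of 18332 gene IDs. Positions are 1-based on GRCh37 from a GENCODE annotation lifted to it, and RPKM (reads scaled to gene length and library size) was computed from recovered reads with the length of the canonical transcript. The promoter windows came from RefSeq on GRCh38.p14. All 7 members had an entry there, and where a gene had several start sites the one farthest upstream was taken.

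The tests, run on genes that reached 0.5 CPM in 2 or more samples, used log2(value + 1) and limma 3.58.1 under R 4.3.3 (lmFit and eBayes with trend, two-sided, Benjamini-Hochberg adjustment over all genes tested, threshold 0.05). High was compared with low glucose in the 8 samples of each line. The lines, and the difference of the glucose response, were compared as contrasts of 4 group means over the 16 samples. Fold changes are on the log2(value + 1) scale, which understates those of low genes. Members have no p-value, since they were chosen from these values. p-values measure the spread between these samples, which may be technical, as the sources do not say that replicates are separate cultures.

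Besides the members, the text names, in each gene list and line, the 2 genes with the largest change among those past the threshold, provided that the groups did not overlap and that the mean of the higher one reached 5 CPM. It always gives PROM2, CD276, PDCD1LG2, CMTM6, EPCAM, ALDH1A1, ESRP1, ESRP2, TM4SF18 and HAS2, and the 3 genes most like each member but PROM1 and CD274, left out for too few reads in 1 line. Other genes were named after their values were seen. Results of some genes of the lists are not reported here, and the counts include them. The alternatives were pseudocounts of 0.5 and 8, other filters, TMM rescaling, limma without trend, a replicate block, leaving out each library, and edgeR 4.0.16 (quasi-likelihood) and DESeq2 1.42.0 on recovered reads. The steps were tested on simulated data. Python 3.11.15 with pandas 2.3.3 and scipy 1.17.1 was used for the rest.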

Additional observations from a re-analysis of the deposited data

Results flagged for a closer look

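In 177 groups of 4 samples checked for the members and named genes, 1 sample stood apart from the other 3 in 20 groups, where chance gives about 1 in 20. The measure is the gap of the outermost sample to its neighbor over the range of its group, read against Dixon's 95% critical value. In MDA-MB-231 it was 1 for PROM1 in both glucose levels, for ALDH1A1 in both, for LY6D, ALDH3B2 and VTCN1 in low glucose and for MUC15 in high glucose, and in MDA-MB-468 it was 1 for HAS2 in low and PDCD1LG2 in high glucose. Those are groups in which 1 library held the few reads. Among the members, ALDH1A3 gave 0.8364 in MDA-MB-231 in high glucose, where replicate 4 had 117 normalized reads, and 0.8474 in MDA-MB-468 in high glucose, where replicate 3 had 4458. CD274 gave 0.8402 in MDA-MB-468 in high glucose, where replicate 2 had 5.46. In MDA-MB-231 the other values were 0.9152 for TSPAN15 and 0.8758 for NT5E in high glucose, and 0.9087 for ALDH1B1, 0.864 for ALDH3A1 and 0.8729 for ICOSLG in low glucose. In MDA-MB-468 in low glucose they were 0.8837 for HMMR and 0.9192 for VTCN1.

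The glucose response of 22 named genes differed between the lines by the limma interaction term. The difference, MDA-MB-468 minus MDA-MB-231 on the log2 scale, was positive for LY6D (1.179), ALDH3B2 (0.9443), TSPAN5 (0.901), SDC1 (0.7944), PROM2 (0.7458), CD82 (0.6393), BCAM (0.5879), TSPAN15 (0.5048), ALDH7A1 (0.3482), CD59 (0.3474), ALCAM (0.2387) and CMTM6 (0.1382). It was negative for RDH10 (-0.9803), ALDH3A1 (-0.8589), NT5E (-0.8414), CYP26B1 (-0.7793), KLF4 (-0.7134), ESRP2 (-0.5202), TPBG (-0.4881), C1GALT1C1 (-0.4774), HMMR (-0.449) and PVR (-0.1696). LY6D and ALDH3B2 were near 0 reads in MDA-MB-231, so that their response there rests on almost no reads. For the members TM4SF1 (0.8623) and MUC1 (0.5248), every high glucose sample lay below the low glucose samples in MDA-MB-231 and above them in MDA-MB-468, and this difference was not tested on any values other than those both were chosen from.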

How the results depend on the processing

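Of the 40 related genes called in MDA-MB-231, 24 kept their call under every alternative, and of the 80 in MDA-MB-468, 66 did, and none changed direction. The count in MDA-MB-231 was 26 under limma without a trend of variance on level. Of all genes, 8.52% were called in that setting, against 15.1% in the main fit, and the cause was not tested. Leaving out 1 library at a time gave 31 to 42 calls in MDA-MB-231, 72 to 79 in MDA-MB-468, 133 to 135 and 134 to 136 between the lines in low and high glucose, and 50 to 59 for the difference of the response. Member rows past the threshold were 2, 3, 7, 7 and 3 to 4. With replicate number as a replicate block the counts of related genes were 33, 81, 134, 136 and 56, where 10.9%, 46.9%, 85.1%, 84.9% and 29.6% of all genes were called. Deviations of same-numbered samples correlated by -0.0834 to 0.0326. No pairing by number was seen in them, which does not exclude that same-numbered samples were handled together. Line differences of PROM1 moved with the pseudocount, from 11.5 at 0.5 to 8.04 at 8 in low glucose, and are no bound. With at most 2 reads of PROM1 in any MDA-MB-231 library and 5 of CD274 in any MDA-MB-468 library, no glucose response of either could be read there.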
